A study of Mus musculus with 23 samples.

Results

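The genes described here are 10 genes of blood vessels and of the vascular endothelial growth factor (VEGF) system: Vegfa, Vegfb, Kdr, Flt1, Angpt1, Tek, Apln, Aplnr, Pecam1 and Cdh5. They were chosen by symbol, and all 10 were found among the 12831 genes of the quadriceps table and among the 16962 genes of the epididymal fat table. In quadriceps of mice with KPC tumors, 6 of the 10 fell against both other groups. Over all genes, 55.7% were called against no tumor (29% lower) and 53.6% against KPC IL6KO (27.3% lower). Calls in either direction were thus about as common among all genes. Lower calls were less common among all genes than among the 10, a difference that was not tested. Apln, Angpt1 and Aplnr fell most, by 20.8-fold, 9.36-fold and 6.13-fold against no tumor, and Tek, Kdr and Vegfb fell by 1.57-fold to 1.79-fold. The general endothelial genes Pecam1 and Cdh5 did not pass the test in that tissue. By edgeR's quasi-likelihood test none of the 10 passed in quadriceps of mice with KPC IL6KO tumors against no tumor, or in any comparison of epididymal fat. Aplnr alone was called by other tools, by DESeq2 in that quadriceps comparison and by DESeq2 and the edgeR likelihood ratio test in fat of KPC against no tumor.

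Endothelial cells line every vessel and carry the receptors through which tissues control their blood supply. VEGF-A and VEGF-B are secreted by the tissue itself, in muscle largely by the fibers and in fat largely by adipocytes. VEGF-A binds the receptor tyrosine kinases KDR (VEGFR2), which carries most of the growth signal, and FLT1 (VEGFR1), which also exists as a soluble decoy. VEGF-B binds FLT1 and not KDR. Angiopoietin-1, made mainly by cells around the vessel, activates the endothelial receptor TEK (Tie2) and keeps vessels quiescent, whereas angiopoietin-2 usually opposes it. Apelin is a peptide made by sprouting endothelial cells and by adipocytes and muscle, and it acts through the receptor APLNR. PECAM1 and VE-cadherin, the product of Cdh5, are junction proteins used as general markers of endothelium.

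The mice were 8-week-old male C57BL/6J animals at surgery, and their own Il6 gene was not edited. The no tumor group had sham surgery. The KPC group received cells of a mouse pancreatic cancer line in the pancreas, and this line was a clone that had been through transfection without loss of Il6. The KPC IL6KO group received cells of 1 clone of the same line in which Il6 had been ablated by CRISPR, so an effect of Il6 loss and a trait of that clone cannot be told apart. All mice were euthanized together when the KPC group reached its endpoint. The paper reports that KPC tumors were larger than KPC IL6KO tumors, and that tumor mass did not correlate with muscle or fat pad mass. The part of tumor size in the values below was not tested. Quadriceps RNA came from 3 no tumor, 4 KPC and 4 KPC IL6KO mice, since the authors removed 1 no tumor library as an outlier, and epididymal fat RNA from 4 mice of each group. Muscle and fat were isolated and sequenced at separate times. Each library held 19259763 to 74907810 counts in quadriceps and 26306377 to 56308545 in fat, and all 10 genes were counted in each library, with 4 counts of Apln in 1 KPC quadriceps library as the lowest value. Values below are CPM, counts scaled to the same library size by TMM. A gene was called where edgeR's quasi-likelihood test gave a false discovery rate (FDR) of at most 0.05 and a fold change (FC) of at least 1.5, the thresholds of the study. The paper does not name the edgeR test it used.

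The labelled tissues were checked on their own genes. Myh4, the fast myosin of muscle fibers, stood at 37066 to 69620 CPM in quadriceps. Adipoq, the adipocyte hormone adiponectin, stood at 123 to 2830 CPM in fat. Gpx5, which is made by the epididymis, stood at 21347 to 54957 CPM in 7 of the 12 fat libraries (no tumor 5 and 7, KPC 5 to 8 and KPC IL6KO 6) and at 4.69 to 85.8 in the others. Tff2, a gastric and pancreatic epithelial peptide, was at 3.47 to 49.2 CPM in the KPC fat libraries and at most 0.205 CPM in the other 8. With the epididymal signal as a covariate, or among the 7 libraries high in Gpx5 alone, none of the members was called in fat either. The part of Tff2-expressing cells in the fat values was not tested. In whole tissue, fewer cells of a type and less RNA per cell cannot be told apart for any gene below.

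The members lie on 9 chromosomes of GRCm38, and each is protein-coding. Vegfa is at chr17:46016993-46032369 on the minus strand, Vegfb at chr19:6982473-6987651 (minus), Kdr at chr5:75932827-75978458 (minus), and Flt1 on the same chromosome at chr5:147561604-147726011 (minus). Angpt1 is at chr15:42424723-42676977 (minus) and Tek at chr4:94739289-94874976 (plus). Apln is at chrX:48025146-48034853 (minus) and Aplnr, a single-exon gene, at chr2:85136225-85139923 (plus). Pecam1 is at chr11:106654217-106750628 (minus) and Cdh5 at chr8:104101625-104144511 (plus). Exons of another gene overlapped only Angpt1, where the antisense gene Gm17473 covered 14.2% of the exonic bases, and the strand setting of the counting is not given in the sources used here.

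Of the 6 genes that fell in KPC quadriceps, 4 have a promoter window in the RefSeq table (GRCm38.p6), 300 bases around the start of transcription, and these are shown because the genes moved together. Capitals mark matches, on either strand, to 3 motifs: CCGGAA, a form bound by ETS factors of endothelium, ACGTG, the core of the hypoxia response element, and TTCNNNGAA, a STAT site.

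Apln (chrX:48034804-48035103, minus): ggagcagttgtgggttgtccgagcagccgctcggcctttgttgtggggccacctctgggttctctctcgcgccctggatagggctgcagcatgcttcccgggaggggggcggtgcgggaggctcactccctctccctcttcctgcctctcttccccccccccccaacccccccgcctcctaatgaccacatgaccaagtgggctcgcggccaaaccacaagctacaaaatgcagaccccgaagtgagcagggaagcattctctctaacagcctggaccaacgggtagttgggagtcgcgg
Kdr (chr5:75978406-75978705, minus): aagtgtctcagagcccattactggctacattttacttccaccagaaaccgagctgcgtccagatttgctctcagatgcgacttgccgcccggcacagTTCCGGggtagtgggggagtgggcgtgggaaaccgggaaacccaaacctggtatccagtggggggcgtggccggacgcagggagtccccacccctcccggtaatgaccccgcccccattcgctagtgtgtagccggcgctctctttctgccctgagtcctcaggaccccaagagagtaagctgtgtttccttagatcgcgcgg
Tek (chr4:94739039-94739338, plus): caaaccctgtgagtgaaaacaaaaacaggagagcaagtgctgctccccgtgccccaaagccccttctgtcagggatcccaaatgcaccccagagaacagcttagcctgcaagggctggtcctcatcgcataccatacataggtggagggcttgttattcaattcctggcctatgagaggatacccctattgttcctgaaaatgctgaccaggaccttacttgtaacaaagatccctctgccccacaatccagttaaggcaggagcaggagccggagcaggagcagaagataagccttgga
Vegfb (chr19:6987602-6987901, minus): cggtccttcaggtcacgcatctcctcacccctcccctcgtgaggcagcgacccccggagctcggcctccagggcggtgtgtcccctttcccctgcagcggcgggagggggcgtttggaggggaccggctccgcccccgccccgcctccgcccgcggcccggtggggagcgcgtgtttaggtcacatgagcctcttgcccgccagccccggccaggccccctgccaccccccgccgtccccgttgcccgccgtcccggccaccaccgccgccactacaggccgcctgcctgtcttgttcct

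Among these 4 windows there was 1 match, CCGGAA in Kdr, which is shown as its reverse complement TTCCGG. Over all 32851 windows of the same length in the table, 14.9% held CCGGAA, 19.6% ACGTG and 8.3% TTCNNNGAA. Of the windows of Flt1 and Vegfa, which were not called, 1 of the 2 Vegfa windows held ACGTG. These matches describe letters only.

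Relative to exonic length, the 2 VEGF ligands stood highest among the members in both no tumor tissues. In no tumor quadriceps, Vegfb stood at 70.5 ± 6.52 and Vegfa at 59.8 ± 7.64 CPM per kilobase (SD, n = 3), and the ranges of the 2 genes overlapped. Cdh5 followed at 19.1 ± 2.86 and Pecam1 at 9.97 ± 1.26, each apart from its neighbors in that order. Kdr (4.78 ± 1.32), Tek (3.89 ± 0.641) and Flt1 (3.57 ± 0.208) overlapped one another. Angpt1 (1.71 ± 0.180) and Aplnr (1.42 ± 0.251) overlapped as well, and Apln was lowest at 0.726 ± 0.257. In no tumor fat (n = 4), Vegfa led with 39.6 ± 21.2 CPM per kilobase, Apln was again lowest with 1.56 ± 0.958, and the range of each gene overlapped that of the next.

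The first comparison asked what a KPC tumor in the pancreas did to these genes in quadriceps. Over all genes, 55.7% were called between KPC and no tumor, 26.7% higher and 29% lower, so a call there was common. Of the 10 members, 6 were called, all lower, with a median log2 FC of -0.72 over the members against -0.03 over all genes. Between KPC and KPC IL6KO, 53.6% of all genes were called (26.4% higher and 27.3% lower), and the same 6 members were called, all lower, with a median of -0.73 against -0.01. The 2 comparisons share the KPC libraries. Groups did not overlap in CPM for 65.3% of genes and 5 members in the first, and for 62% and 5 members in the second.

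**Figure D1:**
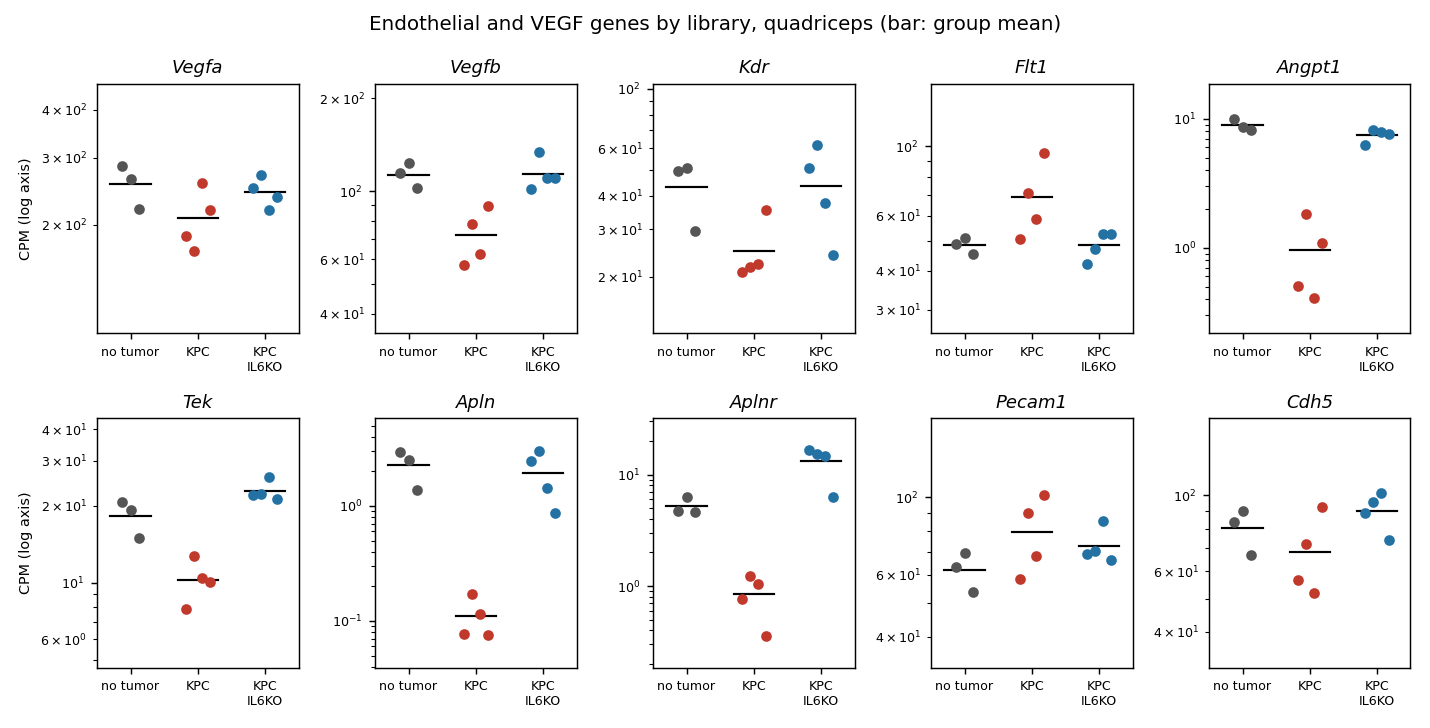
CPM of each member in each quadriceps library, 1 panel per gene, on a log axis; points are libraries and bars are group means (3 no tumor, 4 KPC and 4 KPC IL6KO libraries). The KPC points of Apln, Aplnr and Angpt1 lie below those of both other groups, whereas the KPC points of Pecam1, Cdh5 and Vegfa overlap them.

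Of the ligands, Vegfa, the main angiogenic signal of the family, stood at 285, 263 and 221 CPM in no tumor quadriceps and at 187, 171, 257 and 218 in KPC. In KPC IL6KO it stood at 249, 270.2, 219 and 237 CPM. The groups overlapped, and the log2 FC of KPC against no tumor was -0.30 ± 0.15 (SE; FDR = 0.093). Vegfb, a ligand of FLT1 linked to fatty acid uptake, stood at 114, 123 and 102 CPM with no tumor and at 57.8, 78.3, 62.6 and 89.3 in KPC. In KPC IL6KO, Vegfb was at 102, 134, 110.3 and 110.1 CPM. All 4 KPC libraries were below all others, and Vegfb fell by 0.65 ± 0.16 on the log2 scale against no tumor (FDR = 0.00288) and by 0.66 ± 0.15 against KPC IL6KO (FDR = 0.00166). The FC of Vegfb was close to the threshold: it dropped under 1.5 without KPC 1 in both comparisons (log2 FC -0.56 and -0.57) and without KPC IL6KO 2 in the second (-0.58).

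Of the 2 tyrosine kinase receptors for VEGF, Kdr was called and Flt1 was not. Kdr stood at 49.3, 50.8 and 29.5 CPM with no tumor, at 20.8, 21.7, 22.2 and 35.3 in KPC, and at 50.7, 61.7, 37.6 and 24.1 in KPC IL6KO. In all, 3 KPC libraries were below every other library and KPC 4 was within both other groups, so the groups overlapped. Kdr fell by 0.79 ± 0.30 against no tumor (FDR = 0.0363) and by 0.80 ± 0.29 against KPC IL6KO (FDR = 0.0256). These calls rested on single libraries: against no tumor, Kdr was no longer called without no tumor 1 or 2 or without KPC 1, 2 or 3 (log2 FC -0.66 to -0.74, FDR = 0.0765 to 0.124). Against KPC IL6KO it was no longer called without KPC 1, 2 or 3 or without KPC IL6KO 1 or 2 (-0.59 to -0.75, FDR = 0.0607 to 0.0904).

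Flt1 stood at 48.6, 50.9 and 45.3 CPM with no tumor, at 50.5, 71.2, 58.5 and 95.2 in KPC, and at 42.2, 47.1, 52.5 and 52.3 in KPC IL6KO. In all, 3 KPC libraries were above all others and KPC 1 was not. The log2 FC was 0.51 ± 0.19 against no tumor (FDR = 0.0283) and 0.50 ± 0.17 against KPC IL6KO (FDR = 0.0203), with an FC of 1.43 and 1.42 that did not reach 1.5. Without KPC 1 it did (log2 FC 0.63 in both). Counts of the soluble and membrane forms of Flt1 are not separated in a gene table.

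The angiopoietin pair fell. Angpt1 stood at 9.96, 8.62 and 8.15 CPM with no tumor and at 6.26, 8.10, 7.87 and 7.56 in KPC IL6KO, but at 0.508, 1.81, 0.409 and 1.09 in KPC. No KPC library came near the other groups, and Angpt1 fell by 3.23 ± 0.40 against no tumor (FDR = 3.04e-05) and by 2.97 ± 0.38 against KPC IL6KO (FDR = 3.76e-05). Its receptor gene Tek stood at 20.8, 19.3 and 14.96 CPM with no tumor, at 7.89, 12.7, 10.4 and 10.1 in KPC, and at 21.9995, 22.3, 25.9 and 21.2 in KPC IL6KO. The 3 groups of Tek did not overlap one another. Tek fell by 0.84 ± 0.16 (FDR = 0.000778) and by 1.15 ± 0.15 (FDR = 5.16e-05), so ligand and receptor fell together, the ligand further.

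Both genes of the apelin pair fell. Apln stood at 2.94, 2.53 and 1.38 CPM with no tumor and at 2.44, 3.00, 1.43 and 0.875 in KPC IL6KO. In the 4 KPC libraries it was at 0.077, 0.171, 0.115 and 0.0753 CPM, from 5, 10, 7 and 4 counts, each above the 3 counts taken here as the limit of detection. Apln fell by 4.38 ± 0.49 against no tumor (FDR = 1.64e-05) and by 4.11 ± 0.47 against KPC IL6KO (FDR = 1.78e-05), with no overlap.

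Aplnr stood at 4.74, 6.31 and 4.66 CPM with no tumor, at 0.770, 1.23, 1.05 and 0.358 in KPC, and at 16.5, 15.4, 14.8 and 6.31 in KPC IL6KO. It was low in each KPC library and high in 3 of 4 KPC IL6KO libraries. Aplnr fell by 2.62 ± 0.39 against no tumor (FDR = 0.000119) and by 3.95 ± 0.39 against KPC IL6KO (FDR = 6.11e-06).

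The endothelial markers did not follow. Pecam1 stood at 63.2, 69.3 and 53.8 CPM with no tumor, at 58.6, 90.4, 68.1 and 102 in KPC, and at 68.8, 70.4, 85.7 and 66.4 in KPC IL6KO. Its log2 FC in KPC against no tumor was 0.36 ± 0.18 (FDR = 0.102). Cdh5 stood at 83.8, 90.2 and 67.0 CPM with no tumor, at 56.6, 72.1, 51.9 and 92.1 in KPC, and at 88.5, 95.9, 101 and 73.9 in KPC IL6KO. Its log2 FC was -0.24 ± 0.19 against no tumor (FDR = 0.293) and -0.40 ± 0.18 against KPC IL6KO (FDR = 0.0666). Both genes overlapped between all groups, and a miss of the threshold does not show that they did not differ.

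Scaling bears on the small differences. With upper quartile scaling the median log2 FC of all genes in KPC against no tumor moved to -0.36 and the calls split into 2209 higher and 5060 lower, against 3428 and 3719 with TMM, and with total counts only to -0.24, 2622 and 4499. Against KPC IL6KO the same 2 scalings gave medians of -0.32 and -0.14 and splits of 2183 to 4891 and 2842 to 3984, against 3381 to 3498 with TMM. The 6 members above were lower under each scaling. Vegfa against no tumor (log2 FC -0.63) and Cdh5 against KPC IL6KO (-0.70) were called lower with upper quartile scaling alone.

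Some marker genes of other cell types also differed in KPC quadriceps, where 55.7% of all genes were called against no tumor. Of 6 measured leukocyte markers, 3 were called higher (S100a8, S100a9 and Cd68) and 2 lower (Adgre1 and Ptprc), and their sum was 16.9 to 104 CPM in KPC against 10.7 to 14.4 with no tumor and 11.2 to 19.3 in KPC IL6KO. The sum of 4 adipocyte genes was 3.01 to 337 CPM in KPC, 111 to 619 with no tumor and 16.1 to 101 in KPC IL6KO, and that of 5 fiber genes was 109447 to 126536 against 136464 to 170917 and 158183 to 172191. Of the 2 measured platelet markers, Pf4 was called lower (log2 FC -2.05 ± 0.32) and Itga2b was not (0.15 ± 0.26). Alas2 of red cells (log2 FC 2.41) and Ros1 of the epididymis list (2.52), each the 1 measured gene of its list, were called higher, and Lep of adipocytes (-2.70) and Acta1 of fibers (-0.69) lower. Ros1 was low throughout, at 0.583 to 2.00 CPM in KPC and 0.102 to 0.208 with no tumor. No mesothelial, pancreatic or gastric gene was in the quadriceps table. The part of these cells in the values above was not tested.

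The wider lists show how the members compare with their pathways in KPC quadriceps against no tumor. Over all genes 26.7% were called higher and 29% lower there, so a call was common. Of 5 VEGF ligand genes measured, Figf, which encodes the lymphangiogenic VEGF-D, rose by 3.56 ± 0.32 (FDR = 4.29e-06), from 3.32, 5.13 and 5.74 CPM to 73.9, 61.4, 47.2 and 38.0, and Vegfb was the 1 that fell. Figf is the older symbol under which the table lists it. Of 5 receptor genes, 3 fell and none rose. Besides Kdr these were the co-receptors Nrp1 (-1.45 ± 0.23) and Nrp2 (-0.85 ± 0.15). The lymphatic receptor Flt4 stood at a log2 FC of -0.02 ± 0.14.

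Among 5 angiopoietin and Tie genes, Angpt1 and Tek were the 2 called. Angpt2 stood at 0.03 ± 0.29, Tie1, the partner receptor of Tek, at -0.22 ± 0.19, and Ptprb, the phosphatase of Tek, at -0.17 ± 0.20. Of 21 endothelial identity genes, Pecam1 and Cdh5 included, 3 rose and 4 fell, with a median of -0.06 against -0.03 over all genes. With upper quartile scaling 2 rose and 7 fell (median -0.37), and with total counts only 2 rose and 6 fell (-0.26). Cldn5, a tight junction protein, rose most (2.16 ± 0.36) and Sox18, a transcription factor, fell most (-1.01 ± 0.40). Of 9 Notch and tip cell genes, 3 rose (Dll4, Notch4 and Esm1) and 3 fell (Pdgfb, Unc5b and Jag1), with Esm1 at 1.57 ± 0.53 and Pdgfb, which recruits pericytes, at -2.10 ± 0.30.

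Of 9 pericyte and smooth muscle genes, 6 fell and none rose, with a median of -0.82. Cspg4, the pericyte proteoglycan NG2, fell by 2.46 ± 0.32 and Acta2 by 1.79 ± 0.25. The pericyte genes Pdgfrb (-0.08) and Kcnj8 (-0.14) were not called. Abcc9, which muscle fibers also make, was not called either (0.12 ± 0.13). Of 4 measured genes of activated endothelium, 3 rose, namely Selp (2.75 ± 0.59), a leukocyte adhesion molecule, Ackr1 (0.71) and Icam1 (0.64), and Vcam1 fell (-1.64 ± 0.28), whereas upper quartile scaling and total counts each left 1 rise and 1 fall. Of 6 lymphatic genes, Pdpn was the 1 called (-1.10 ± 0.31). Of 13 regulators and companions of Vegfa under hypoxia, 6 rose and 3 fell. Egln3 rose by 4.27 ± 0.44 and Bnip3 by 3.20 ± 0.23, while Esrra, a driver of Vegfa in muscle, fell by 1.68 ± 0.21. The hypoxia targets Car9 (-1.58) and Pdk1 (-0.59) were called lower as well, so the hypoxia targets did not move in 1 direction. Of 5 secreted inhibitors of vessel growth, Thbs1 rose (1.67 ± 0.35), and Col18a1 (-1.93 ± 0.28) and Vash1 (-1.72 ± 0.19) fell, and Adamts1 stood at 0.04 ± 0.22. Across all lists, members included, 55 genes were called, and none of these changed sign under the other 3 scalings. Under one or another, 2 to 5 of them were no longer called, among them Pdk1, Jag1, Esm1, Ackr1 and Icam1. Over all genes 55.7% were called in this comparison, and no list was tested against that share.

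**Figure D2:**
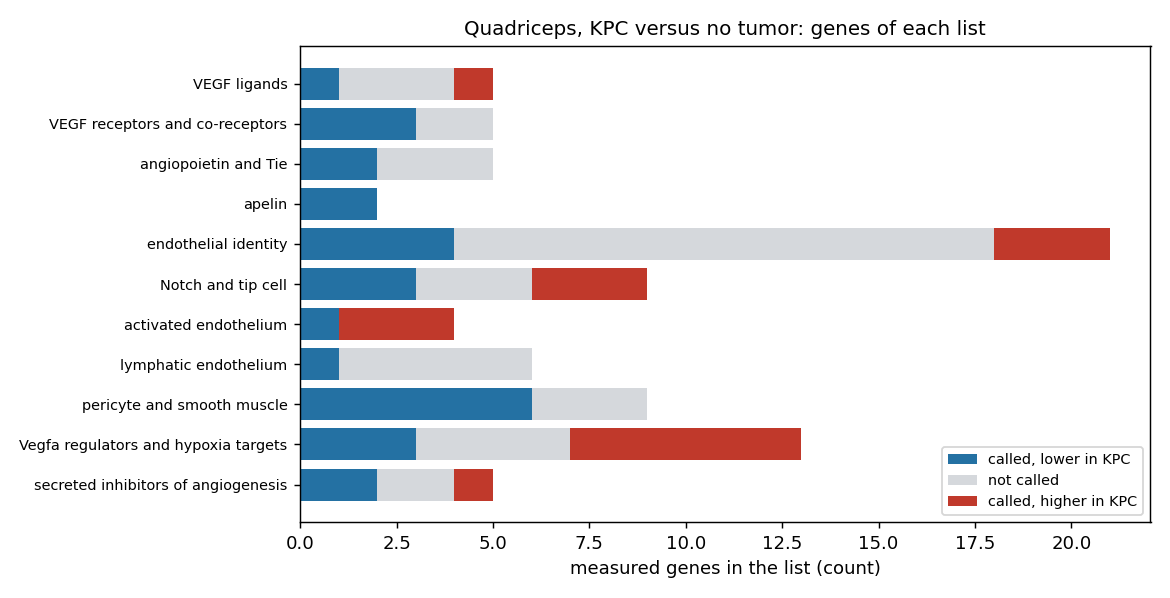
Number of measured genes in each list that were called lower (blue), not called (grey) or called higher (red) in KPC against no tumor quadriceps; bars start at 0. The apelin list (2 of 2) and the pericyte and smooth muscle list (6 of 9) hold only lower calls, whereas most of the 21 endothelial identity genes were not called. Over all genes, 29% were called lower and 26.7% higher.

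The lists were also counted in KPC against KPC IL6KO quadriceps, where 26.4% of all genes were called higher and 27.3% lower. Pgf, a FLT1 ligand, joined Figf among the called rises (log2 FC 1.85 ± 0.34), Vegfc joined the falls (-0.77 ± 0.23), and 3 endothelial identity genes rose and 7 fell, with a median of -0.43 against -0.01 over all genes. With upper quartile scaling 1 rose and 12 fell (median -0.72), and with total counts only 3 rose and 9 fell (-0.54). Of the 4 genes of activated endothelium, none was called higher and 1 lower there.

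The second question was whether these genes changed in quadriceps of mice whose implanted tumor cells lacked Il6. The host kept its own Il6, and the paper reports more Il6 mRNA in these tumors than in KPC tumors. Between KPC IL6KO and no tumor, edgeR's quasi-likelihood test called 0% of all genes and 0 of the 10 members. At an unadjusted p under 0.05 there were 6.91% of all genes and 1 member, Aplnr, and groups did not overlap for 15.5% of all genes and 3 members (Angpt1, Aplnr and Tek). Aplnr was higher in KPC IL6KO, with a log2 FC of 1.33 ± 0.38 (FDR = 0.363), and KPC IL6KO 4, at 6.31 CPM, was well below the other 3 of its group. DESeq2, which called 0.748% of genes, called Aplnr (log2 FC 1.36, FDR = 0.0375). The edgeR likelihood ratio test, which called 25 genes higher and 70 lower, did not. At the same thresholds the paper also reports genes changed in each direction in this comparison, in numbers close to those of the likelihood ratio test. Tek stood at 0.31 ± 0.16 (FDR = 0.811) and Pecam1 at 0.23 ± 0.18 (FDR = 0.982). For the other 7, the difference was smaller than its own SE, and the fitted fold was at most 1.199.

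The same comparisons were made in epididymal fat, where libraries of a group spread far more: the biological coefficient of variation was 63.5%, against 22.7% in quadriceps. edgeR's quasi-likelihood test called 0% of all genes and none of the members in each of the 3 comparisons. At the same thresholds the edgeR likelihood ratio test called 268 genes higher and 145 lower in KPC against no tumor. In KPC IL6KO against no tumor it called 209 higher and 0 lower. The paper gives the same counts for both of these comparisons. At an unadjusted p under 0.05 by the quasi-likelihood test, KPC against no tumor gave 12.2% of all genes and 3 members (Aplnr, Vegfb and Angpt1), KPC IL6KO against no tumor 9.34% and 1 (Aplnr), and KPC against KPC IL6KO 6.26% and 1 (Vegfb). Groups did not overlap for 10.9% of genes and 1 member (Aplnr) in the first, for 2.01% and none in the second, and for 4.33% and 1 (Vegfb) in the third.

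**Figure D3:**
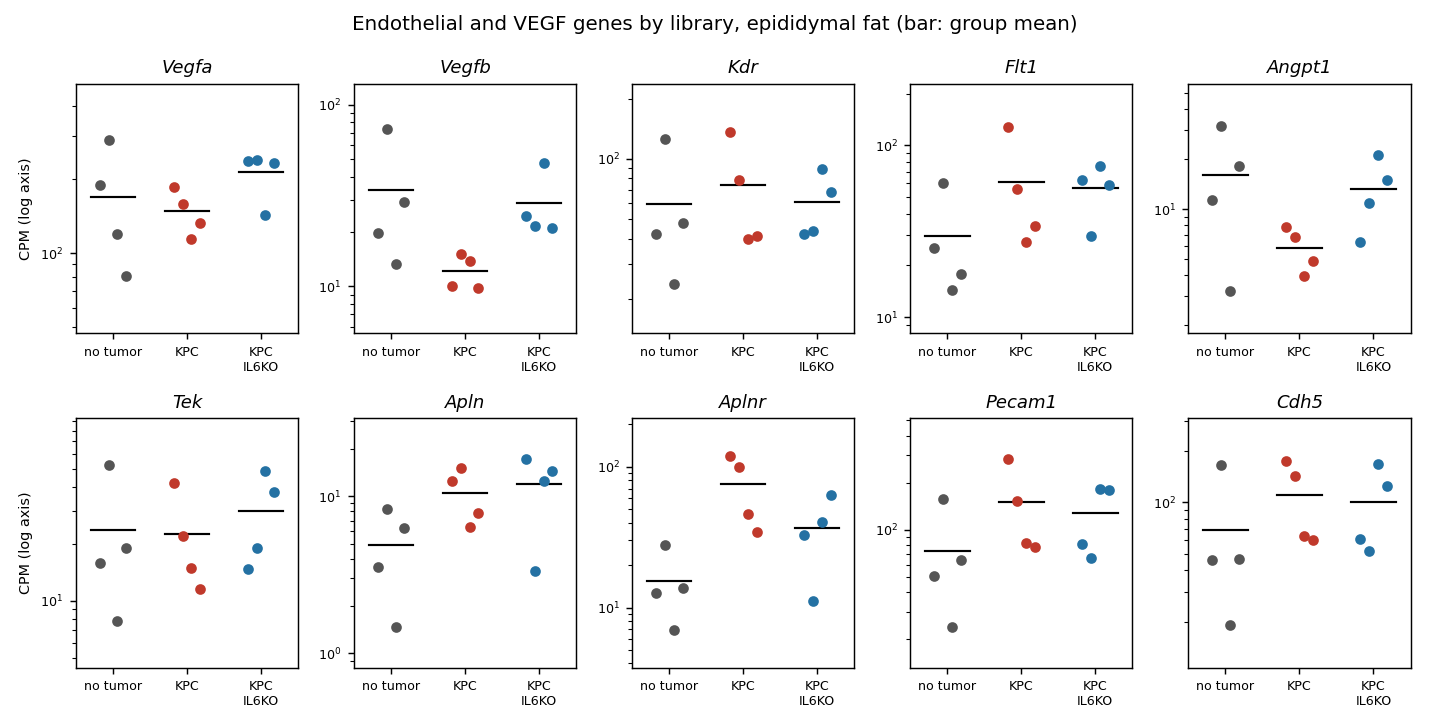
CPM of each member in each epididymal fat library, 1 panel per gene, on a log axis; points are libraries and bars are group means (4 libraries per group). The KPC points of Aplnr lie above all no tumor points, from 34.4 to 119.7 against 6.88 to 28.0 CPM, and the groups overlap in most other panels.

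Aplnr, the apelin receptor, stood at 12.6, 28.0, 6.88 and 13.8 CPM in no tumor fat, at 119.7, 99.9, 46.2 and 34.4 in KPC, and at 32.6, 11.2, 40.7 and 63.4 in KPC IL6KO. All KPC libraries were above all no tumor libraries, and KPC IL6KO overlapped both. The log2 FC of KPC against no tumor was 2.29 ± 0.60 (edgeR, FDR = 0.228). The edgeR likelihood ratio test, with 2.43% of genes called, and DESeq2, with 3.45%, called it (FDR = 0.0135 and 0.00738). The level of Apln was 3.52, 8.30, 1.46 and 6.32 CPM with no tumor, 12.5, 15.2, 6.33 and 7.80 in KPC, and 17.3, 3.33, 12.5 and 14.4 in KPC IL6KO. Its log2 FC was 1.09 ± 0.59 in KPC (FDR = 0.498) and 1.28 ± 0.59 in KPC IL6KO (FDR = 0.54).

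Of the ligands in fat, Vegfa was at 80.6 to 288 CPM with no tumor, 114 to 187 in KPC and 143 to 239.5 in KPC IL6KO. Vegfb was at 19.8, 73.9, 13.2 and 29.0 CPM with no tumor, at 10.1, 15.01, 13.8 and 9.79 in KPC, and at 24.4, 21.6, 47.6 and 20.9 in KPC IL6KO. Each KPC library of Vegfb was below each KPC IL6KO library, while no tumor 7 was within the KPC range. The log2 FC of Vegfb in KPC was -1.48 ± 0.49 against no tumor (FDR = 0.291) and -1.23 ± 0.49 against KPC IL6KO (FDR = 0.716). The adipocyte gene sum was 436 to 1169 CPM in the KPC libraries, 990 to 4593 in KPC IL6KO and 348 to 8023 with no tumor, that of pericyte and smooth muscle genes was 345 to 506, 633 to 4280 and 532 to 4555, and that of skeletal muscle fiber genes 0.672 to 3.84, 92.6 to 2272 and 6.74 to 256. Their part in the Vegfb values was not tested. Among the 7 libraries high in Gpx5, of which 2 were no tumor, 4 KPC and 1 KPC IL6KO, the log2 FC of Vegfb in KPC was -0.33 against no tumor (edgeR, FDR = 0.567) and -0.71 against KPC IL6KO (FDR = 0.421).

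Kdr was at 23.6 to 125 CPM in no tumor fat, 39.8 to 136 in KPC and 42.0 to 89.1 in KPC IL6KO. Flt1 was at 14.4 to 60.6, 27.5 to 128 and 29.5 to 76.03 CPM, with a log2 FC of 1.05 ± 0.57 in KPC (FDR = 0.497) and 0.94 ± 0.56 in KPC IL6KO (FDR = 0.647). Tek was at 7.77 to 52.7, 11.5 to 41.9 and 14.8 to 48.6 CPM. The ranges of these receptors overlapped in all 3 groups.

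Angpt1 was at 11.3, 31.7, 3.23 and 18.2 CPM in no tumor fat, at 7.83, 6.82, 3.98 and 4.91 in KPC, and at 6.31, 10.9, 21.2 and 14.9 in KPC IL6KO. No tumor 5, 6 and 8 were above all KPC libraries and no tumor 7 was below them. The log2 FC in KPC was -1.45 ± 0.59 against no tumor (FDR = 0.367), and -0.19 (FDR = 0.925) among the libraries high in Gpx5. In those libraries Aplnr stood at 3.04 (FDR = 0.0598).

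Pecam1 was at 23.9 to 157 CPM in no tumor fat, 77.9 to 284 in KPC and 66.5 to 182 in KPC IL6KO, and Cdh5 at 19.3 to 165, 60.4 to 173 and 52.1 to 167. Their log2 FC in KPC were 1.02 ± 0.60 (FDR = 0.549) and 0.67 ± 0.64 (FDR = 0.697). In the no tumor group, replicate 6 was the highest for all 10 members and replicate 7 the lowest for all but Vegfa. None of the 21 endothelial identity genes was called in fat in any comparison by edgeR's quasi-likelihood test, which called 0% of all genes. Their medians were 0.44, 0.70 and -0.03 in the order used above, against -0.10, -0.03 and -0.05 over all genes. By computational deconvolution of the fat libraries, the paper reports a difference in endothelial cells between KPC and no tumor. It reports no cell type that differed between KPC IL6KO and no tumor.

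No gene of the other lists was called in fat either. The sums of 5 activated endothelium genes were 111 to 230 CPM in KPC fat, 40.9 to 551 in KPC IL6KO and 25.5 to 63.3 with no tumor, with the adhesion molecule Vcam1 at a log2 FC of 2.35 ± 0.86 in KPC against no tumor (FDR = 0.329). Thbs1, an inhibitor of vessel growth, stood at 2.81 ± 1.09 (FDR = 0.348) and Myh11, the smooth muscle myosin, at -3.34 ± 1.05 (FDR = 0.28). In KPC IL6KO fat against no tumor, the log2 FC was 2.76 for Vcam1, 3.25 for Thbs1 and -0.11 for Myh11. Leukocyte genes summed to 216 to 381 CPM in KPC, 90.6 to 1022 in KPC IL6KO and 49.96 to 158 with no tumor, and their part in the members' values was not tested.

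Whether the response of a gene differed between the tissues was tested in 1 fit over all 23 libraries and the 12599 genes of both tables. For KPC against no tumor, 36.9% of genes were called, and Apln and Aplnr were the 2 members called. The log2 FC of Apln was lower in quadriceps than in fat by a difference of -5.56 ± 0.83 (FDR = 5.28e-05), from -4.38 in quadriceps and 1.09 in fat. For Aplnr the difference was -5.01 ± 0.77 (FDR = 6.85e-05), from -2.62 and 2.29, and Angpt1 followed with -1.87 ± 0.76 (FDR = 0.0575), a difference called by the edgeR likelihood ratio test (FDR = 0.0375) and with upper quartile scaling (-2.08, FDR = 0.0385). Fat no tumor 6 bore on this count: without it 6 members were called, Kdr, Tek, Cdh5 and Angpt1 besides. The share of all genes called without that library was not counted, so the 6 cannot be read as a result about the members. For KPC IL6KO against no tumor, edgeR's quasi-likelihood test called 0% of genes and 0 of the members. None of the members had an unadjusted p under 0.05 by that test (1003 of all genes did). The edgeR likelihood ratio test called 0.31% of genes and 0 of the members. Tissue and time of isolation and sequencing cannot be told apart. The study's methods also give a different library kit and amount of RNA for each tissue, which cannot be told apart from tissue either. The labels number the muscle and fat libraries differently and do not say whether they came from the same mice, and the fit took all libraries as independent.

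**Figure D4:**
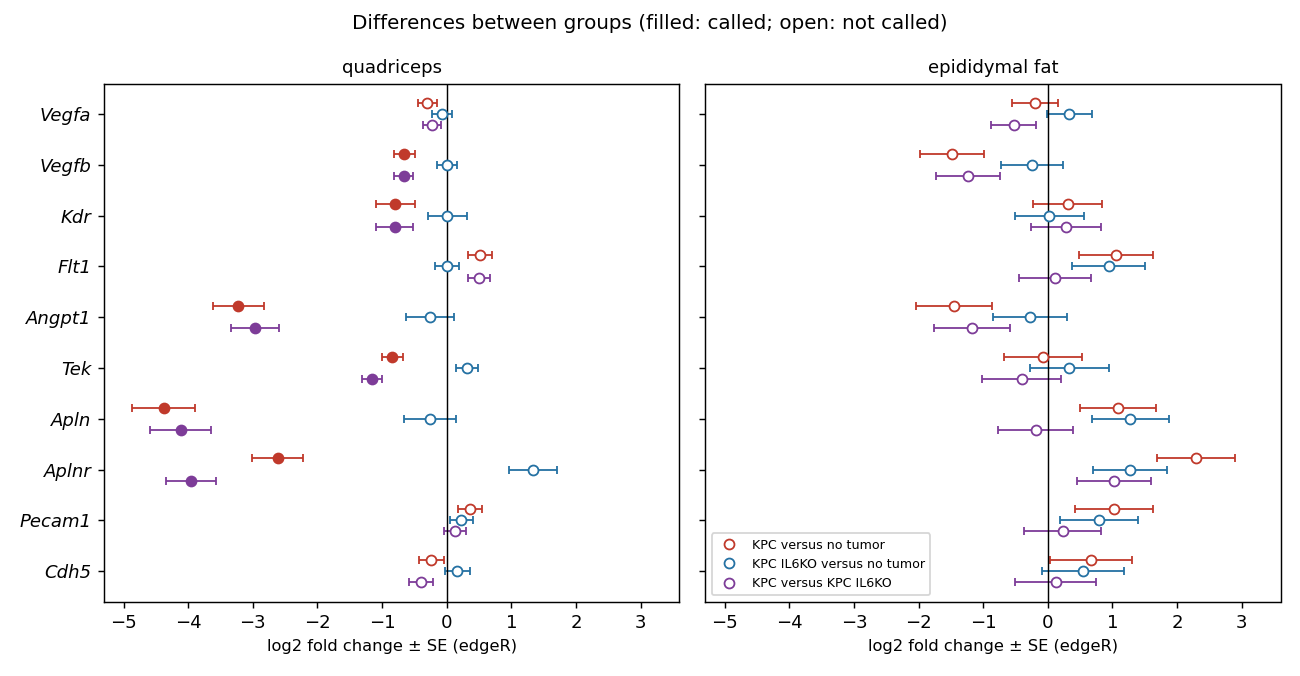
log2 FC (horizontal, ± SE) of each member in the 3 comparisons, quadriceps left and epididymal fat right; filled points were called and open points were not. The points of Apln and Aplnr in KPC against no tumor lie left of 0 in quadriceps, at -4.38 and -2.62, and right of 0 in fat, at 1.09 and 2.29.

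Ratios of 2 genes within a library do not depend on how libraries are scaled. In all, 3 ratios were compared over 3 comparisons and 2 tissues by 2-sided exact permutation tests, 18 in all. The smallest p these groups allow is 0.0286. With Benjamini-Hochberg adjustment no ratio could come under 0.05 unless most of the 18 tests reached that smallest p. None of the 18 was under 0.05, which therefore says little about ratios that did not overlap. Flt1 to Kdr was 0.986, 1.00 and 1.54 in no tumor quadriceps, 2.43, 3.29, 2.63 and 2.70 in KPC, and 0.832, 0.763, 1.40 and 2.17 in KPC IL6KO. It was higher in 4 of 4 KPC libraries than in any other library, a mean log2 difference of 1.26 ± 0.23 (SE) against no tumor and 1.22 ± 0.36 against KPC IL6KO (exact permutation p = 0.0286, adjusted 0.0735, in both). In fat the same ratio was 0.371 to 0.611 with no tumor, 0.692 to 0.942 in KPC and 0.676 to 1.503 in KPC IL6KO, so both tumor groups were above no tumor in each library (adjusted exact permutation p = 0.0735 in both).

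Angpt2 to Angpt1 was 0.243, 0.255 and 0.289 in no tumor quadriceps, 7.09, 0.811, 6.76 and 1.48 in KPC, and 0.184 to 0.258 in KPC IL6KO. The KPC libraries were above all others but spread widely, with a mean log2 difference of 3.40 ± 0.79 against no tumor (exact permutation p = 0.0571, adjusted 0.129) and 3.67 ± 0.79 against KPC IL6KO (p = 0.0286, adjusted 0.0735). In fat it was 0.213, 0.184, 1.47 and 0.529 with no tumor, 4.04, 2.97, 2.37 and 2.40 in KPC, and 1.80, 0.202, 0.744 and 0.817 in KPC IL6KO, so again each KPC library was above all others (adjusted exact permutation p = 0.0735 against each). Vegfa to Kdr overlapped between groups in both tissues, with adjusted p from 0.229 to 0.938 by the same exact permutation test.

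Aplnr and Angpt1 were also set against Cdh5, a gene of all endothelium. Both ratios were chosen after their values were seen and have no test. Aplnr to Cdh5 was 0.0566 to 0.0700 in no tumor quadriceps, 0.00388 to 0.0202 in KPC and 0.0853 to 0.186 in KPC IL6KO, with no overlap between the 3 groups. In fat it was 0.170 to 0.357 with no tumor and 0.569 to 0.729 in KPC, in the opposite order, with KPC IL6KO between 0.215 and 0.532. Angpt1 to Cdh5 was 0.0956 to 0.122 in no tumor quadriceps, 0.00788 to 0.0252 in KPC and 0.0708 to 0.102 in KPC IL6KO. In fat it was 0.168 to 0.389 with no tumor, 0.0452 to 0.0813 in KPC and 0.103 to 0.209 in KPC IL6KO, so KPC was below both other groups in each tissue.

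**Figure D5:**
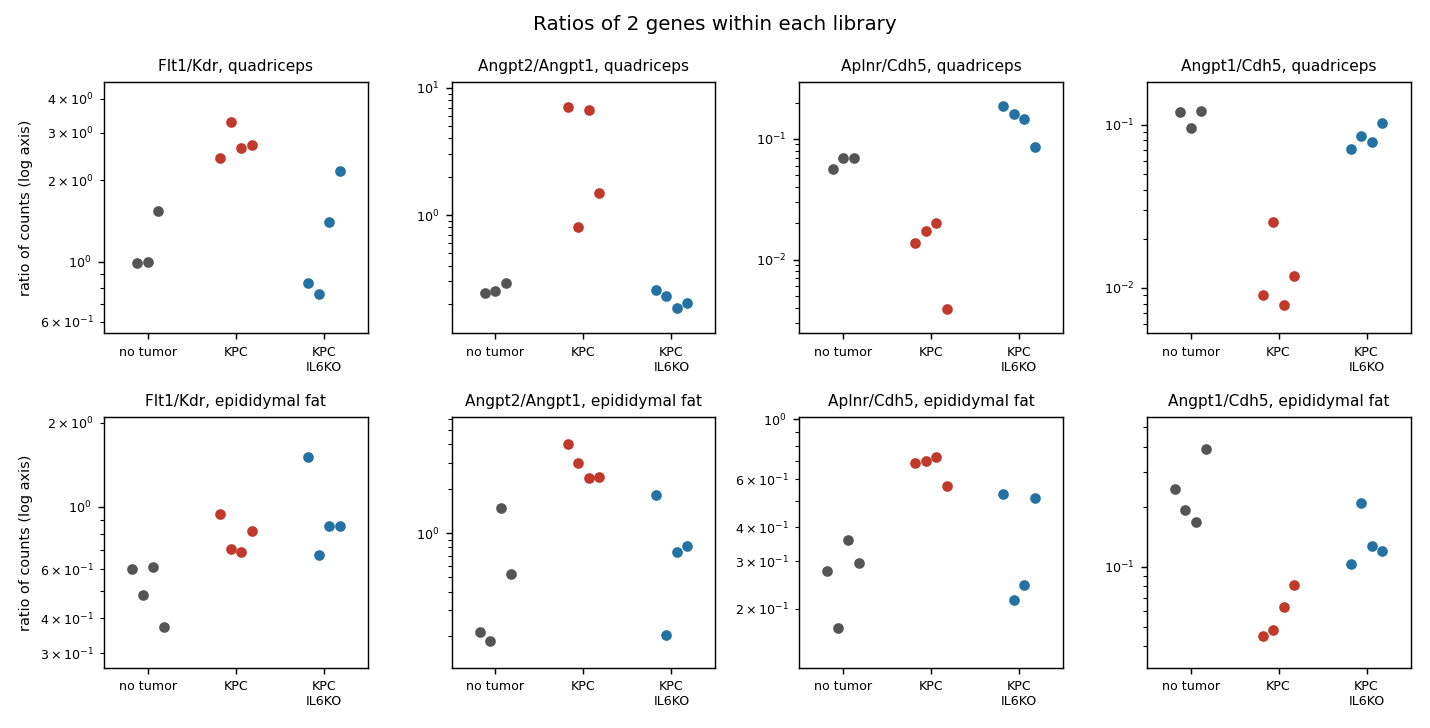
Ratio of the counts of 2 genes in each library (log axes), quadriceps in the upper row and epididymal fat in the lower; points are libraries. Aplnr to Cdh5 is lowest in KPC quadriceps (at most 0.0202) and highest in KPC fat (at least 0.569), whereas Angpt1 to Cdh5 is lowest in KPC in both tissues.

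The genes whose log2 CPM, centred on its mean, ran closest to a member were found by the root mean square difference over the libraries of a tissue. For Cdh5 in quadriceps these were Tie1 (0.0725 over 11 libraries, with a median of 0.511 over 10519 genes), Evl and Acadm, and in fat S1pr1 (0.125 over 12 libraries, median 1.04 over 13915 genes), Erg and Fli1. For Vegfa they were Sco1 (0.0977, median 0.465), 1110001J03Rik and Pdhb in quadriceps and Arsb (0.277, median 0.655), Iqsec2 and Anxa1 in fat.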

How the data were processed

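RNA of quadriceps (11 libraries) and epididymal fat (12 libraries) was sequenced by the authors, and the deposited values are raw counts of reads per gene. Per the labels and the submitters' processing notes, reads were checked with FastQC, aligned to mm10 with STAR and counted with featureCounts 1.5.1 of Subread, and edgeR 3.12.1 was used. Reads that aligned uniquely were counted. The kit is named differently in the labels and in the study's methods, and the methods name a different kit for each tissue. The strand setting is not given in the sources used here.

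Groups came from the sample labels, and replicate libraries are separate mice, so p-values measure the spread between these mice. Each tissue was fitted with its 3 groups in edgeR 4.0.16 (R 4.3.3) with TMM scaling and the quasi-likelihood test. filterByExpr removed 0 genes, and p-values were adjusted over all genes by Benjamini-Hochberg. Genes with FDR ≤ 0.05 and FC ≥ 1.5 were called. The tests were checked on simulated counts. No 2 libraries of a group agreed within sampling noise (chi-square per degree of freedom at least 28.9). The rule for named genes was all 10 members and, in each list, the gene with the highest mean CPM, the called genes with the largest rise and fall, and all called genes where there were 5 or fewer. It was followed in full for KPC against no tumor quadriceps, apart from Cidec of adipocytes, and in part elsewhere. Likeness was computed over genes whose log2 CPM averaged 1 or more. Members and lists were chosen with earlier results of these data known. Sequences are from RefSeq (GRCm38.p6) and positions from GENCODE for GRCm38, the build of mm10. Alternatives were DESeq2 1.42.0, the edgeR likelihood ratio test, a newer quasi-likelihood fit, other scalings and filters, a replicate block, pairs of groups fitted alone, libraries left out in turn and, in fat, the epididymal signal. The scalings of the lists were added after seeing the data. Figures were drawn with matplotlib 3.10.9.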

Additional observations from a re-analysis of the deposited data

Results flagged for a closer look

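Over the 50 groups of 4 libraries examined, 4 held a library far from the other 3, and chance alone marks about 1 in 20 such groups. Aplnr in quadriceps of KPC IL6KO 4 was at 6.31 CPM, below the other 3 of its group (gap over range 0.835). Kdr in quadriceps of KPC 4 was at 35.3 CPM, above the other 3 (0.906). In fat, KPC IL6KO 7 was low for Vegfa, at 143 CPM (0.946), and high for Vegfb, at 47.6 CPM (0.87).

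For 2 genes the response to a KPC tumor differed between the tissues in the test of the difference itself. The log2 FC in quadriceps minus that in fat was -5.56 for Apln and -5.01 for Aplnr.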

How the results depend on the processing

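In quadriceps, Angpt1, Aplnr and Tek stayed called lower in KPC against both groups under every alternative, and Apln under each except the minimum of 10 counts in every library, which left Apln out. The number of members called in KPC against no tumor was 5 to 7, and 5 to 6 with a library left out. Against KPC IL6KO it was 5 to 7, and 4 to 6 with a library left out. In KPC IL6KO against no tumor quadriceps, DESeq2 called 1 member (Aplnr). In fat KPC against no tumor, DESeq2 and the likelihood ratio test each called 1 (Aplnr). For the tissue difference, 1 was called with the minimum of 10 counts, since Apln was left out, and 2 to 6 with a library left out, 6 without fat no tumor 6. The share of all genes called was not counted for fits with a library left out. The likelihood ratio test and upper quartile scaling each gave 3, with Angpt1 added. The tissue difference of Vegfb (0.71 ± 0.56) ran from -0.002108, without that library, to 0.9716 with a library left out. Replicate numbers were not taken as pairs. Deviations of same-numbered libraries correlated at -0.15 to 0.26 in quadriceps (2 of 10 pairs over 0.1) and -0.54 to 0.65 in fat (7 of 12). A library correlated most with its own number in another group in 6 of 20 cases in quadriceps and 8 of 24 in fat. With a replicate block, 5 members were called in KPC against no tumor quadriceps, where Kdr stood at -0.73 (FDR = 0.0839), 6 against KPC IL6KO, and 0 in each fat comparison. Of 1115 alternative values for the 48 single gene differences of at least 1 SE, 1085 kept their direction and side of the threshold, 14 lost a call, 15 gained one and 1 changed sign. The 38 differences under 1 SE are given no direction, and 27 of them changed sign. The coefficient of variation between libraries, 63.5% in fat and 22.7% in quadriceps, limits precision.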
